A study of Mus musculus with 18 samples.

Results

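The genes described here are 10 Eph receptors and ephrins of the mouse, namely the receptors Epha1, Epha2, Epha4, Epha5, Ephb2 and Ephb4 and the ligands Efna1, Efna4, Efnb1 and Efnb2. They were listed by name and matched by Ensembl identifier among the 53801 genes counted, and they are 10 of the 22 Eph and ephrin genes measured. Epha2 was chosen by its counts in these libraries, in which its difference between the lines changed direction at T48, so its values are given as a description without a test. RNA was measured in 18 libraries of embryonic stem cells (ESCs), in 6 groups of 3 biological replicates. WT cells are the E14 mouse ESC line, and iEZR_CA cells are E14 cells carrying a PiggyBac insertion from which doxycycline switches on a phosphomimetic, constitutively active ezrin, a linker of plasma membrane and actin cortex, together with mCherry. Both lines grew on gelatin and were collected in 2i+LIF (ESC, 0 h), which keeps cells naive, and in N2B27 without these factors at 24 h (T24) or 48 h (T48). Doxycycline was given to iEZR_CA cells alone, starting about 16 h ahead of the exit, so the drug and the transgene cannot be told apart in any comparison of the lines.

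Eph receptors are receptor tyrosine kinases that bind ephrins on neighbouring cells. EphA receptors bind mainly the lipid-anchored ephrin-A ligands and EphB receptors the transmembrane ephrin-B ligands, and contact signals forward into the receptor cell and in reverse into the ligand cell. The family is known for cell repulsion, tissue boundaries and the positioning of axons and vessels.

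The 3 members with the widest range between groups were Epha1 (213-fold between the highest and lowest group mean), Efnb2 (27.2-fold) and Epha2 (12.1-fold), and the 250 bases before their start sites are shown because these are the genes on which the results turn. The sequences are from RefSeq (GRCm38.p6), 5′ to 3′ on the strand of the gene, and capitals mark matches to any of 5 motifs searched on both strands.
Epha1, chr6:42373269-42373518, minus strand: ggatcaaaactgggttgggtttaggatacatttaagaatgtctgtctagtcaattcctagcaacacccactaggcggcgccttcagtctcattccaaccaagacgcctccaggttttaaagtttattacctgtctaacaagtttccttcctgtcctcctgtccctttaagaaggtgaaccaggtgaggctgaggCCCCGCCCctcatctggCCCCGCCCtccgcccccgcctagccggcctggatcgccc
Efnb2, chr8:8661243-8661492, minus strand: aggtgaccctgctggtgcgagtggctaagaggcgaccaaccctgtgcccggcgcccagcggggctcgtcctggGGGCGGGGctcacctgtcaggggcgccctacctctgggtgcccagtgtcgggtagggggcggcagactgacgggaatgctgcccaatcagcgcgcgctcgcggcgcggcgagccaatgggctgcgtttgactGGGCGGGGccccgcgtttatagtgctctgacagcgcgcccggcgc
Epha2, chr4:141300971-141301220, plus strand: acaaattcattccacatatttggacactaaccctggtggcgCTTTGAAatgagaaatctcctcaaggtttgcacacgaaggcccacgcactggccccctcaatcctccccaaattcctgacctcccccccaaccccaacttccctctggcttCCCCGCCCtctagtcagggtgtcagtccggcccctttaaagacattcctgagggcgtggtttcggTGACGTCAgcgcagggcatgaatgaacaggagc
In the Epha2 sequence the capitals are, in order, a TCF/LEF motif (TTCAAAG, minus strand, starting 209 bases before the start site), an SP and KLF motif (GGGCGGGG, minus strand, 98 bases) and a CRE motif (TGACGTCA, 33 bases). The TCF/LEF letters occurred in 4.46%, the CRE letters in 1.55% and the SP and KLF letters in 16.1% of 32851 promoter windows of the same length. Epha2 was the single member with the TCF/LEF or the CRE letters, whereas 6 of the 10 members held the SP and KLF letters, Epha1 and Efnb2 at 2 places each. No member held the ETS letters (CCGGAAGT, 2.88% of windows) or the AP-1 letters (TGACTCA, 4.46%). The Efnb2 window held 27 CpG dinucleotides, Epha1 and Epha2 9 each, and the median of all windows was 6. A match is a match of letters and no evidence of binding.

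Ezr, the gene altered in iEZR_CA cells, had normalized counts (counts divided by DESeq2 size factors) of 11467 to 12017 in WT and 24372 to 25358 in iEZR_CA ESCs. The lines did not overlap at T24 (7539 to 7890 against 20185 to 21299) or at T48 (9683 to 10508 against 16067 to 16393). The count does not separate the transgene from the native gene. Gene counts per library ran from 10940752 to 33276622. Reads with low alignment quality took 0.519% to 0.612% of WT and 0.889% to 1.02% of iEZR_CA libraries, and their part in the results was not tested. The summed normalized counts of 7 naive markers lay between 104689 and 107005 in WT and between 98529 and 99536 in iEZR_CA ESCs. At T24 they were 23313 to 24055 in WT and 47422 to 48132 in iEZR_CA cells, with 7 higher by the test. At T48 they were 1900 to 1973 in WT and 9852 to 10828 in iEZR_CA cells. The sum of 5 formative markers at T24 was 42092 to 44444 in WT and 15054 to 16017 in iEZR_CA cells (5 lower). At T48 it was 75512 to 81331 and 38191 to 40378 (3 lower, 1 higher). Markers of other cell types also moved with line and stage. At T48 the sum of 3 fibroblast markers was 348 to 394 in WT and 44.4 to 65.4 in iEZR_CA cells, with 3 of 3 lower by the test. That of 4 endothelial markers was 836 to 858 and 2166 to 2277, with 2 of 3 tested higher. Most of it was Pecam1, with T48 means of 581 in WT and 1754 in iEZR_CA cells. Pecam1 fell with exit in both lines, from ESC means of 3012 and 3845. At T48 Tek had means of 252 and 452, and Kdr of 16.7 and 18.7. The T48 sum of 3 neural markers was 539 to 686 in WT and 426 to 447 in iEZR_CA cells, with 1 of 2 tested lower. The defining markers Cdh5 (endothelial) and Neurog2 (neural) had at most 3 counts in every library. Over all groups, 5 primitive endoderm markers summed to 49.2 to 200.1 and 3 mesendoderm markers to 124 to 276. The part of these markers in the results was not tested.

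**Figure D1:**
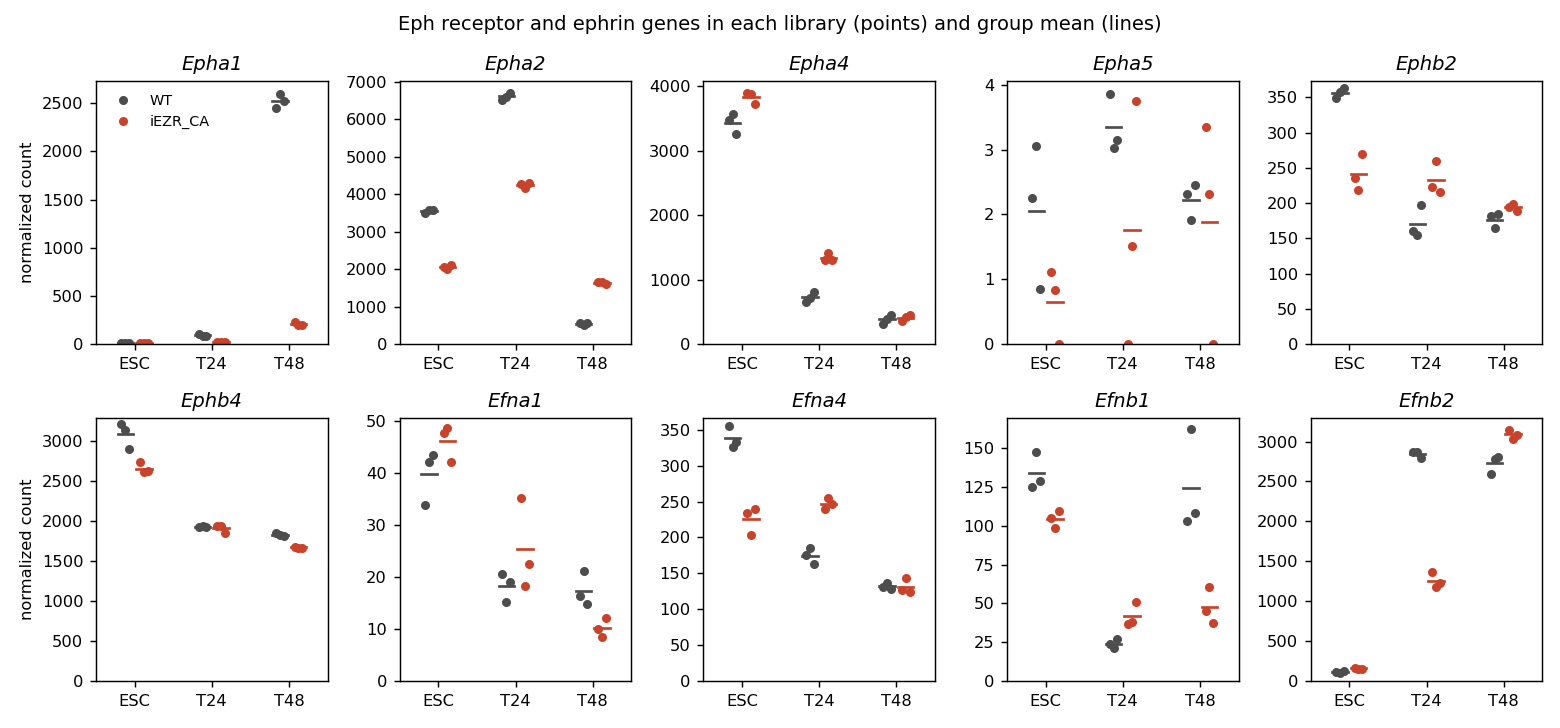
Normalized counts (vertical axis, linear and starting at 0, a scale of its own for each gene) of the 10 Eph and ephrin genes by stage, with WT in grey and iEZR_CA in red; each point is a library and each short line the mean of 3 libraries. At T48 Epha1 stood at 2453 to 2600 in WT and at 198 to 226 in iEZR_CA libraries, and Epha2 had the opposite order.

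Among the members, Epha1 had the largest difference between the lines and Epha2 the next, both at T48. Epha2, a receptor that is abundant in epithelia and in ESCs, had normalized counts of 3504, 3579 and 3569 in WT ESCs, 6525, 6594 and 6713 in WT T24 cells, and 570, 514 and 561 in WT T48 cells. In iEZR_CA cells it had 2063, 2007 and 2122 in ESCs, 4267, 4171 and 4312 at T24, and 1666, 1663 and 1596 at T48. All iEZR_CA libraries were below all WT libraries in ESCs and at T24, and all were above them at T48. The means were 1.72-fold lower in iEZR_CA ESCs, 1.56-fold lower at T24 and 2.99-fold higher at T48. Both lines had their highest level at T24, with similar ratios of T24 to ESC of 1.86 in WT and 2.06 in iEZR_CA cells. The ratio of T24 to T48 was 12.1 in WT and 2.59 in iEZR_CA cells. None of the neighbours in the order of the 6 group means overlapped, with WT T24 highest and WT T48 lowest. On the log2 scale the line difference was -0.79 ± 0.03 (standard error) for ESCs, -0.64 ± 0.03 for T24 and 1.57 ± 0.04 for T48. Epha2 was chosen by these same values, so its standard errors describe the fit and are not read as a test. Of tested genes within 5 Mb of Epha2 on chromosome 4, 88 averaged 50 or more normalized counts. Their median log2 fold changes were -0.09, 0.12 and 0.12 in the same comparisons.

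Epha1, the founding member of the family, was nearly off in ESCs, with normalized counts of 14.6, 14.5 and 15.3 in WT and 14.4, 10.04 and 11.2 in iEZR_CA cells. At T24 the counts were 108, 88.8 and 80.4 in WT and 25.6, 27.3 and 21.6 in iEZR_CA cells. At T48 they were 2453, 2600 and 2527 in WT and 226, 203 and 198 in iEZR_CA cells. The lines did not overlap at any stage, although in ESCs the nearest libraries, at 14.5 and 14.4, were almost equal. Epha1 did not pass the test in ESCs (log2 fold change -0.34 ± 0.31, edgeR adjusted p = 0.379). It was lower in iEZR_CA cells at T24 (log2 fold change -1.94 ± 0.16, edgeR adjusted p = 4.35e-17) and at T48 (-3.58 ± 0.06, 7.22e-55). These p-values are from the edgeR quasi-likelihood test with Benjamini-Hochberg adjustment over 18469 genes, as are all that follow. Epha1 rose in both lines over both intervals, by 6.24-fold and then 27.3-fold in the WT means and by 2.09-fold and then 8.41-fold in the iEZR_CA means.

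Epha1 shares 236 exon bases, 6.01% of its exons, with Zyx on the opposite strand, and whether strand was used in counting is not given in the sources used here. Zyx, which encodes the focal adhesion protein zyxin, moved with Epha1, with mean normalized counts of 173, 656 and 3110 in WT and 194, 222 and 712 in iEZR_CA cells from ESC to T48. The ratio of Epha1 to Zyx was 0.0855, 0.141 and 0.812 in WT and 0.0612, 0.112 and 0.293 in iEZR_CA cells. The share of Zyx reads in the Epha1 counts was not tested.

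Epha4, a receptor that binds ligands of both classes, fell with exit in both lines. Its normalized counts were 3479, 3575 and 3258 in WT ESCs and 3903, 3881 and 3730 in iEZR_CA ESCs. At T24 they were 658, 719 and 813 in WT and 1314, 1408 and 1309 in iEZR_CA cells. At T48 they were 317, 386 and 456 in WT and 365, 419 and 448 in iEZR_CA cells. The libraries of the lines did not overlap in ESCs or at T24, and they did at T48. Epha4 was 1.84-fold higher in iEZR_CA cells at T24 (log2 fold change 0.91 ± 0.10, edgeR adjusted p = 2.16e-06). At T48 the log2 fold change was 0.09 ± 0.13 (edgeR adjusted p = 0.606). In ESCs it was 0.15 ± 0.08 (edgeR adjusted p = 0.107), a difference that passed the threshold with no filter on low counts (0.00412) and with the compared groups alone (1.38e-04).

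Epha5, a receptor best known from neurons, had 0 to 6 raw counts in each library and 0 in 3 libraries. It did not pass the filter on low counts and was not tested.

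Of the B class, Ephb4, the receptor that pairs with Efnb2 between veins and arteries, was the steadiest abundant member. Its group means lay between 1671 and 3087 normalized counts, 1.85-fold apart. It fell from ESC to T24 in both lines, by 0.69 ± 0.03 in WT and 0.48 ± 0.04 in iEZR_CA cells on the log2 scale. Between the lines it differed by at most 1.16-fold in the means. It was lower in iEZR_CA ESCs (log2 fold change -0.22 ± 0.03, edgeR adjusted p = 5.61e-08) and in T48 cells (-0.13 ± 0.04, 0.00234), while the T24 libraries overlapped (-0.01 ± 0.04, 0.756). The T48 call was lost with no filter on low counts (edgeR adjusted p = 0.0923). With scaling to spike-in sequences the calls in ESCs and at T48 were lost (log2 fold change -0.17 and -0.07, edgeR adjusted p = 0.350 and 0.705).

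Ephb2, a receptor of the gut crypt and of axon guidance, was less abundant. Its normalized counts were 350, 358 and 363 in WT ESCs and 236, 218 and 270 in iEZR_CA ESCs. At T24 they were 161, 154 and 197 in WT and 223, 259 and 216 in iEZR_CA cells. The order of the lines was therefore opposite at these stages, without overlap. The log2 fold change was -0.59 ± 0.08 in ESCs (edgeR adjusted p = 7.46e-09) and 0.49 ± 0.09 at T24 (7.11e-06). At T48 the means were 177 ± 10.7 and 194 ± 4.91 (SD, n = 3), which did not pass the edgeR test (adjusted p = 0.268). Ephb2 fell from ESC to T24 in WT (log2 fold change -1.11 ± 0.09, edgeR adjusted p = 3.11e-18), and in iEZR_CA cells the change was -0.03 ± 0.09 (adjusted p = 0.835).

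Among the ligands, Efnb2, the transmembrane ephrin of arteries, had the largest change with time. Its normalized counts were 117, 97.2 and 127 in WT ESCs and 167, 153 and 151 in iEZR_CA ESCs. At T24 they were 2867, 2869 and 2798 in WT and 1360, 1182 and 1227 in iEZR_CA cells. At T48 they were 2591, 2784 and 2806 in WT and 3146, 3034 and 3085 in iEZR_CA cells. iEZR_CA libraries were all above WT in ESCs, all below at T24 and all above at T48. Efnb2 was 2.26-fold lower in iEZR_CA cells at T24 (log2 fold change -1.19 ± 0.04, edgeR adjusted p = 4.45e-36). It was higher in iEZR_CA ESCs (0.47 ± 0.10, edgeR adjusted p = 5.34e-05) and in T48 cells (0.19 ± 0.04, 1.26e-05). Of tested genes within 5 Mb on chromosome 8, 44 averaged 50 or more normalized counts. At T48 these had a median log2 fold change of 0.14, near that of Efnb2 itself. Those neighbours had medians of 0.15 in ESCs and 0.21 at T24, the latter opposite in sign to Efnb2. All 958 tested genes of chromosome 8 had medians of 0.18, 0.21 and 0.18 from ESC to T48. The part of the chromosome in the Efnb2 difference was not tested. With scaling to spike-in sequences the T48 call was lost while the estimate was 0.24 (edgeR adjusted p = 0.133).

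Efnb2 rose from ESC to T24 by 25.0-fold in the WT means and 7.99-fold in the iEZR_CA means. From T24 to T48 the WT log2 fold change was -0.07 ± 0.04 (edgeR adjusted p = 0.105) with overlapping libraries, while iEZR_CA cells rose by 2.46-fold (1.31 ± 0.04, adjusted p = 1.00e-38). The mean of iEZR_CA cells at T48 was 1.09 times that of WT cells at T24.

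Efnb1, the X-linked transmembrane ephrin, had a minimum at T24 in WT cells, with normalized counts of 125, 148 and 129 in ESCs, 23.8, 21.2 and 26.8 at T24, and 103, 163 and 108 at T48. In iEZR_CA cells the counts were 105.2, 98.8 and 109 in ESCs, 36.4, 38.0 and 50.6 at T24, and 45.2, 60.8 and 37.2 at T48. The lines did not overlap at any stage, and iEZR_CA cells were the lower ones in ESCs and at T48 and the higher ones at T24. The log2 fold change was 0.83 ± 0.23 at T24 (edgeR adjusted p = 0.00139) and -1.24 ± 0.16 at T48 (2.47e-10). In ESCs it was -0.38 ± 0.13 (edgeR adjusted p = 0.0120), a call lost without WT ESC replicate 2 (0.0994), without iEZR_CA ESC replicate 2 (0.0677), with DESeq2 (0.133) and with spike-in scaling (0.193). Efnb1 rose from T24 to T48 in WT by 5.20-fold (log2 fold change 2.30 ± 0.19, edgeR adjusted p = 1.72e-17), and in iEZR_CA cells the change was 0.23 ± 0.19 (adjusted p = 0.317).

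Efna4, a lipid-anchored ephrin, had normalized counts of 355, 326 and 333 in WT ESCs and 234, 203 and 239 in iEZR_CA ESCs. At T24 it had 176, 186 and 162 in WT and 240, 255 and 247 in iEZR_CA cells. As for Ephb2, iEZR_CA cells were lower in ESCs and higher at T24 without overlap, and the libraries overlapped at T48 (means 132 ± 3.66 and 131 ± 11.04, SD, n = 3). The log2 fold change was -0.60 ± 0.08 in ESCs (edgeR adjusted p = 3.28e-09) and 0.50 ± 0.09 at T24 (2.01e-06). Efna4 shares 10.5% of its exon bases with an antisense gene, 4731419I09Rik, whose group means were at most 4.28 normalized counts.

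Efna1, a ligand of Epha2, was scarce, with group means of 10.2 to 46.1 normalized counts. It passed the edgeR test between the lines at no stage (adjusted p = 0.413, 0.238 and 0.0526 from ESC to T48). At T48 its libraries were 16.2, 21.03 and 14.7 in WT and 10.04, 8.46 and 11.99 in iEZR_CA cells, which did not overlap, and the call was gained when genes needed at least 10 counts in every library (edgeR adjusted p = 0.0387) or without iEZR_CA T48 replicate 3 (0.0483). Efna1 fell from ESC to T24 in both lines, with log2 fold changes of -1.13 ± 0.24 in WT and -0.96 ± 0.22 in iEZR_CA cells. Efna1 and Efna4 lie with Efna3 within 66.3 kb of chromosome 3 (GRCm38, chr3:89271733-89338028).

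**Figure D2:**
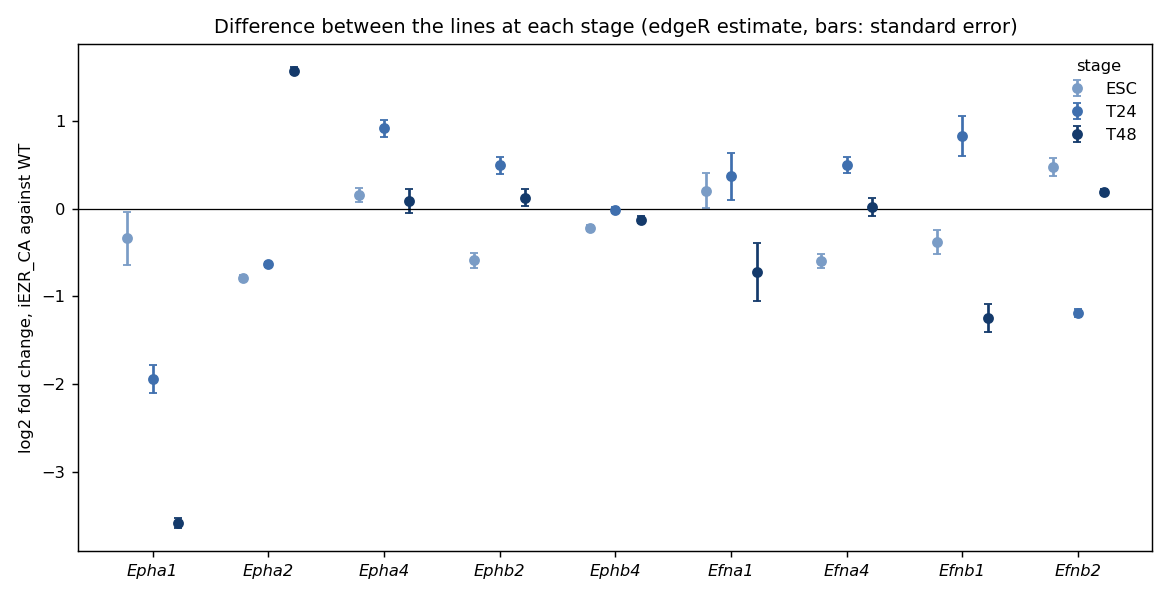
Difference of iEZR_CA from WT cells as log2 fold change (vertical axis) for 9 members in ESCs, at T24 and at T48. Bars give the standard error of the edgeR estimate. Epha5 was not tested and is left out, and Epha2 is shown as a description without a test. Epha1 went from -0.34 to -3.58, and the estimates of Epha2, Ephb2, Efna1, Efnb1 and Efnb2 lay on both sides of 0, as did those of Efna4.

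Counted over the 8 members other than Epha2 and Epha5, 1 was higher and 4 were lower in iEZR_CA ESCs, where 26.4% of all tested genes were higher and 28.1% lower. At T24, 4 were higher and 2 lower (30.8% and 30.1% of all genes). At T48, 1 was higher and 3 were lower (31.0% and 30.1%). The median log2 fold change of the 8 was -0.28, 0.43 and -0.05, against -0.01, 0.00 and 0.00 over all tested genes. Between the lines, 58.0% of tested genes did not overlap in ESCs, 63.9% at T24 and 64.5% at T48, so that a lack of overlap was common in these libraries. With 8 members, no test of the list was made and the counts are not read as particular to it.

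Over time, 2 of the 8 rose and 6 fell from ESC to T24 in WT cells (31.8% and 33.6% of all genes). In iEZR_CA cells 2 rose and 4 fell in the same interval (27.1% and 28.9%). From T24 to T48, 2 rose and 2 fell in WT (32.8% and 32.9%), and 2 rose and 5 fell in iEZR_CA cells (29.6% and 30.0%). Epha1 and Efnb2 were the members that rose from ESC to T24 in both lines. From T24 to T48 it was Epha1 and Efnb1 that rose in WT and Epha1 and Efnb2 in iEZR_CA cells.

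Whether the change over time differed between the lines was tested as an interaction. From ESC to T24 it was positive for 5 members (Epha4, Ephb2, Ephb4, Efna4 and Efnb1) and negative for Epha1 and Efnb2, where 21.5% of all genes were positive and 16.9% negative. From T24 to T48 it was positive for Efnb2 alone and negative for 6 members (25.3% and 20.9% of all genes). Both interactions use the T24 libraries with opposite sign, so their opposite directions in Epha4, Ephb2, Efna4, Efnb1 and Efnb2 are not independent of each other. Epha1 was negative in both, with -1.60 ± 0.37 (edgeR adjusted p = 2.63e-04) and -1.64 ± 0.21 (5.80e-10).

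Levels of different genes were compared per exon length, as RPKM, the count scaled to exon length and library size. The exon length was the union of exons, and the shares depend on that choice. The longest transcript had 4793 bases for Efnb2 (union 6855), 3913 for Epha2 (4674) and 4340 for Ephb4 (4640). Shares by the longest transcript are not given here. Epha2 and Ephb4 were close in iEZR_CA T48 cells, at 36.1% and 37.0%, and are not ranked. Summed over all Eph receptor genes the level was 101 ± 2.47 RPKM in WT and 84.5 ± 1.38 in iEZR_CA ESCs, 98.7 ± 1.11 and 78.9 ± 0.504 at T24, and 66.1 ± 0.725 and 46.6 ± 0.539 at T48 (SD, n = 3). In bulk RNA, fewer cells with a transcript and less of it per cell cannot be told apart. Epha2 held 36.4% of the summed receptor RPKM in WT ESCs, 68.5% at T24 and 8.46% at T48. In iEZR_CA cells it held 25.0%, 55.1% and 36.1%. At T48 Epha1 held the largest share in WT cells, 46.3% of the receptor RPKM against 5.47% in iEZR_CA cells. Ephb4 held 28.4% in WT and 37.0% in iEZR_CA cells at T48. Epha4 held 20.4% and 27.0% in ESCs and 3.45% and 5.25% at T48.

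The summed ephrin level was 26.4 ± 0.485 RPKM in WT ESCs, 31.3 ± 0.747 in WT T24 cells and 30.5 ± 1.29 in WT T48 cells. In iEZR_CA cells it was 21.1 ± 0.362, 24.5 ± 0.539 and 31.4 ± 0.539 from ESC to T48. The make-up in WT cells went from Efna4, with 38.5% of the ephrin RPKM in ESCs, to Efnb2, with 63.4% at T24 and 62.2% at T48. In iEZR_CA cells Efna4 held 32.0% in ESCs and still 30.2% at T24, beside 35.8% for Efnb2, and at T48 Efnb2 held 68.6%. By class, ephrin-A genes summed to 10.01 ± 0.545 RPKM in WT and 13.5 ± 0.151 in iEZR_CA cells at T24, and ephrin-B genes to 21.2 ± 0.270 and 10.9 ± 0.690. The ephrin-A libraries of iEZR_CA cells were all above and the ephrin-B libraries all below those of WT at T24. In ESCs the order was the opposite for both classes, again without overlap. There the ephrin-A sums were 20.7 ± 0.606 in WT and 13.8 ± 0.687 in iEZR_CA cells, and the ephrin-B sums 5.73 ± 0.292 and 7.27 ± 0.356. At T48 the ephrin-B sums were 21.6 ± 0.977 and 23.1 ± 0.344, and the ephrin-A sums 8.90 ± 0.345 and 8.33 ± 0.372.

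**Figure D3:**
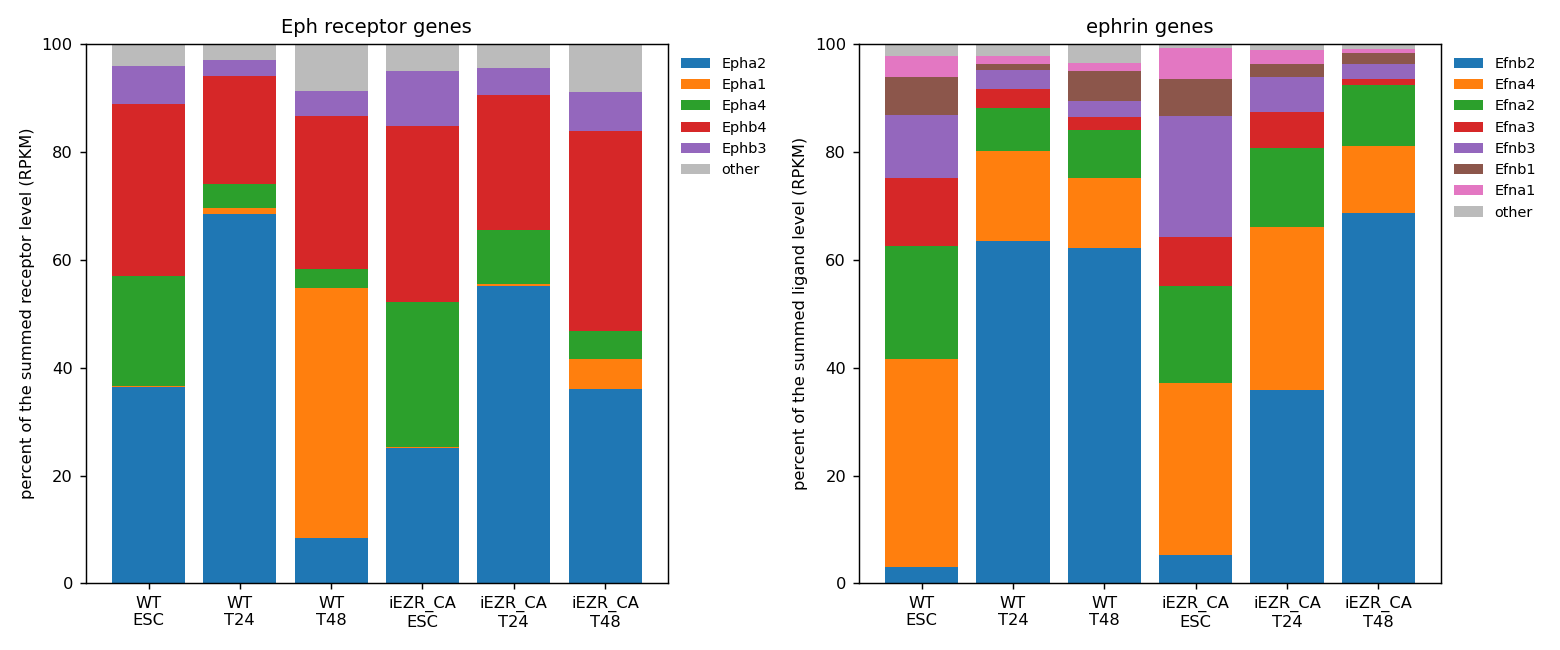
Share of the summed RPKM (vertical axis, percent, mean of 3 libraries) held by Eph receptor genes (left) and ephrin genes (right) in the 6 groups. Named segments are Epha2, Epha1, Epha4, Ephb4 and Ephb3 on the left and all ephrins but Efna5 on the right. The remaining genes, with the members Epha5 and Ephb2 among them, are summed in grey as other. At T48 Epha1 held 46.3% of the receptor level in WT cells, where Epha2 and Ephb4 led in iEZR_CA cells, and Efnb2 held 63.4% and 62.2% of the ephrin level in WT cells at T24 and T48.

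The other 12 Eph and ephrin genes were fixed as a list, of which 11 passed the filter (Epha6, with at most 1 count, did not). In iEZR_CA against WT ESCs 4 were higher and 4 lower (26.4% and 28.1% of all tested genes), at T24 5 and 2 (30.8% and 30.1%), and at T48 3 and 7 (31.0% and 30.1%). The median log2 fold change of the 11 was 0.22 in ESCs, 0.50 at T24 and -1.05 at T48. Efna3, the neighbour of Efna4, was lower in ESCs and higher at T24 as Efna4 was, with log2 fold changes of -0.81 ± 0.12 and 0.58 ± 0.15 (edgeR adjusted p = 1.59e-08 and 5.15e-04). At T48 Efna3 was lower (-1.13 ± 0.22, edgeR adjusted p = 1.19e-05), where Efna4 did not pass. Efna5 was lower in iEZR_CA cells at all 3 stages, with log2 fold changes of -2.04 ± 0.25, -1.42 ± 0.21 and -1.98 ± 0.19. At T48 Ephb1 (-2.61 ± 0.17) and Epha8 (-2.01 ± 0.20) were lower too, and Ephb6, a receptor without kinase activity, was higher (0.87 ± 0.15). Epha3 had 0 to 13 counts and is not described further, but its call as higher in ESCs is within the counts above. So is that of Epha8 as lower in ESCs, where its raw counts were 2, 0 and 3 in WT and 0 in each iEZR_CA library. Both ESC calls therefore rest on few reads, and the medians above include both genes.

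Of 30 genes that act with Eph receptors and ephrins (kinases, adaptors, phosphatases, PDZ proteins, further regulators and the protease Adam10), 29 were tested. In iEZR_CA ESCs 7 were higher and 12 lower (26.4% and 28.1% of all tested genes), at T24 11 and 9 (30.8% and 30.1%), and at T48 5 and 16 (31.0% and 30.1%). The median log2 fold change of the 29 was -0.18, -0.05 and -0.14. Adam10, the protease that cleaves ephrins at contacts, was higher at all 3 stages (log2 fold change 0.61 ± 0.05, 0.71 ± 0.05 and 0.97 ± 0.05). Grip1, a PDZ scaffold that binds ephrin-B tails, was lower at all 3 (-1.66 ± 0.18, -0.84 ± 0.17 and -1.99 ± 0.12). Arhgef16 was higher in ESCs (1.29 ± 0.14) and at T24 (1.10 ± 0.16) and lower at T48 (-1.04 ± 0.13). The adaptor Grb7 was lower at all 3 stages (-0.84 ± 0.10, -0.46 ± 0.08 and -1.69 ± 0.06). The adaptor Grb10 was lower in ESCs (-0.81 ± 0.04) and at T48 (-2.20 ± 0.04), with -0.05 ± 0.04 at T24 (edgeR adjusted p = 0.270). The PDZ protein Sdcbp was higher at all 3 (0.27 ± 0.04, 0.32 ± 0.04 and 0.47 ± 0.04). The ubiquitin ligase Cbl was lower at T24 (-0.56 ± 0.08), with -0.09 ± 0.08 in ESCs and -0.15 ± 0.08 at T48 (edgeR adjusted p = 0.387 and 0.120). The partners called higher or lower here passed the edgeR test, with adjusted p from 4.68e-52 for Grb10 at T48 to 3.22e-05 for Cbl at T24.

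The genes whose pattern over the 18 libraries was most like that of Epha2 were Acp6 (Pearson r = 0.996), Nr0b1 (0.988), Apobec3 (0.984), Vwa3b (0.980) and Mvp (0.980), of 12800 genes that averaged 50 or more normalized counts. Nr0b1 encodes the nuclear receptor DAX1 of naive cells. Those most like Efnb2 were Sptb (0.992), Foxi3 (0.989), Pdk1 (0.988), Arhgef28 (0.987) and Platr22 (0.987). The 18 points share their stage and line, which alone give high correlations, so these are descriptions of likeness. By Spearman rank correlation the 5 genes most like Epha2 included Acp6 and Nr0b1, and those most like Efnb2 included none of the 5 above. Between members, Efnb2 ran opposite to Ephb4 (r = -0.964) and Epha4 (r = -0.948) over the same 18 libraries.

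**Figure D4:**
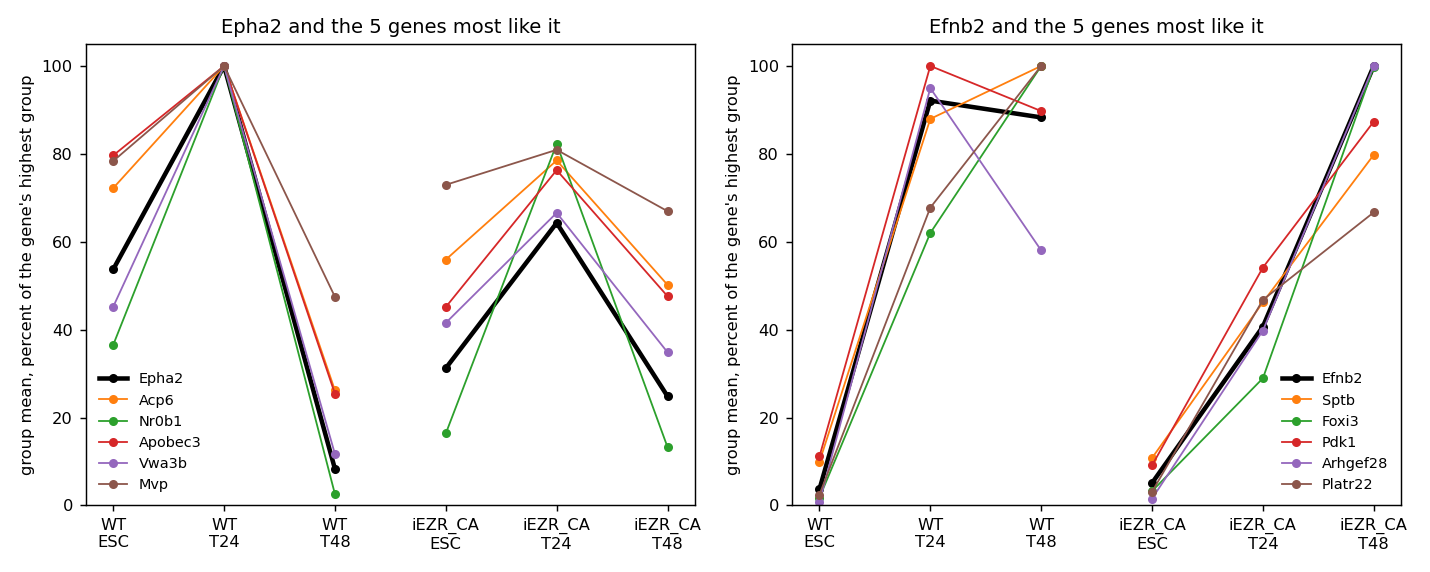
Group means of Epha2 (left) and Efnb2 (right), in black, with the 5 genes most like each, as percent of the highest group of each gene (vertical axis) in the 6 groups. Epha2 and its 5 like genes had their highest level in WT T24 cells and their lowest in WT T48 cells.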

How the data were processed

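Poly(A) RNA was sequenced from 18 libraries. Per the labels and the methods of the study, the authors trimmed reads with Trim Galore 0.6.5, aligned them to GRCm38 (mm10) with GSNAP and counted them per gene with HTSeq; the strand setting is not given in the sources used here. The deposited values are raw counts per gene, unnormalized and unpooled. Groups were taken from the labels. The members and gene lists were chosen with earlier results of these data known, and the p-values and counts of calls take no account of that choice.

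Counts were tested with edgeR 4.0.16 (R 4.3.3): filterByExpr by group, TMM, a term for each of 6 groups, robust quasi-likelihood tests and Benjamini-Hochberg adjustment over 18469 genes with a threshold of 0.05. Standard errors were derived from the F statistic. Normalized counts used DESeq2 1.42.0 size factors. RPKM used the union of exons in GENCODE M21, which held 53706 of the gene identifiers. Alternatives were other scalings, filters, fits and DESeq2, gene length, likeness by Spearman rank correlation, and leaving out each library. Scripts were tested on simulated counts. Named genes were the 10 members, other family genes past the filter, among partners the 2 largest rises and falls past the threshold in each comparison of the lines with a mean of at least 50, Ezr, and the 5 genes most like Epha2 and Efnb2. Precision rests on 3 libraries a group. The p-values set a difference against the variation between libraries, estimated with information shared over genes and the 6 groups. They do not cover variation between cell lines or clones, since each genotype is a single line. The common biological coefficient of variation in edgeR, which leaves out counting noise, was 2.98% over the tested genes. Libraries could differ more for single members, as for Efnb1 in WT T48 cells (124 ± 33.1 normalized counts, SD) and Efna1 in iEZR_CA T24 cells (25.3 ± 8.75).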

Additional observations from a re-analysis of the deposited data

Results flagged for a closer look

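The change over time differed between the lines (interaction in edgeR, log2 scale, iEZR_CA minus WT, all with Benjamini-Hochberg adjusted p under the threshold) for the following members, given as values. From ESC to T24 the interaction was -1.60 for Epha1, 0.76 for Epha4, 1.08 for Ephb2 and 0.21 for Ephb4. For the ligands it was 1.10 for Efna4, 1.21 for Efnb1 and -1.66 for Efnb2. From T24 to T48 it was -1.64 for Epha1, -0.83 for Epha4 and -0.37 for Ephb2. For the ligands it was -1.09 for Efna1, -0.48 for Efna4, -2.07 for Efnb1 and 1.38 for Efnb2. Of these, those of Ephb2 and Efna1 from T24 to T48 had the highest edgeR adjusted p, 0.0213 and 0.03.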

How the results depend on the processing

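Directions of called members held under every alternative run. Scaling to spike-in sequences left 3 of 5 calls between the lines in ESCs (Ephb4 and Efnb1 lost), 2 of 4 at T48 (Ephb4 and Efnb2 lost), and 4 of 7 in the T24 to T48 interaction (Ephb2, Efna1 and Efna4 lost). It also shifted the median of all genes by 0.14 and 0.13 on the log2 scale over the WT intervals and by 0.15 from ESC to T24 in iEZR_CA cells. Over all genes it called 5506 in place of 10058 in ESCs, 7129 in place of 11253 at T24, 7229 in place of 11282 at T48, 6593 in place of 10340 from ESC to T24 and 6931 in place of 11015 from T24 to T48 in iEZR_CA cells, and 2416 in place of 7081 and 3761 in place of 8526 in the interactions; the cause was not tested. Leaving out 1 library at a time gave 5 to 8 members called in the T24 to T48 interaction (7 with all libraries), and 4 to 5 in ESCs and at T48. In that interaction Ephb2 was lost without WT T24 replicate 1 or 2 or iEZR_CA T24 replicate 2, Efna1 without WT T24 or WT T48 replicate 2, iEZR_CA T24 replicate 1 or iEZR_CA T48 replicate 2, and both with DESeq2 or no filter; Ephb4 was gained without WT T48 replicate 2 or 3 or iEZR_CA T24 replicate 3. The fall of Ephb2 from T24 to T48 in iEZR_CA cells was lost without iEZR_CA T24 replicate 2 (edgeR adjusted p = 0.160), with DESeq2 (0.0513) and with spike-in scaling (0.416). Spike-in scaling also lost the fall of Ephb4 in that interval in iEZR_CA cells (edgeR adjusted p = 0.625), that of Efna4 in WT cells (0.150) and the ESC to T24 interaction of Ephb4 (0.23 on the log2 scale, 0.524). By Spearman rank correlation 2 of the 5 genes most like Epha2 and 0 of the 5 most like Efnb2 were kept. No paired analysis was possible because the labels give no replicate numbers; the numbers used here follow the order of deposit and only name libraries. Epha5, with 0 to 6 counts a library, was not tested.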
